A study of Homo sapiens with 6 samples.

Results

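The genes described are the SMAD proteins and the inhibitors that act on them, namely *SMAD1*, *SMAD2*, *SMAD3*, *SMAD4*, *SMAD6*, *SMAD7*, *SKI*, *SKIL*, *SMURF1* and *SMURF2*. They were picked by symbol from the 58676 gene identifiers of the deposited count table, and 10 of 10 were found and were among the 19072 genes tested. The study asked how lung fibroblasts respond to signals released by alveolar epithelial cells in which RAS has been switched on. MRC5 cells, an established human lung fibroblast line, were kept for 24 h in conditioned medium (CM) and their RNA was sequenced. The CM came from ATIIER:KRASV12 cells, an alveolar type II (ATII) cell line that carries a RAS oncoprotein which becomes active when 4-hydroxytamoxifen (4-OHT) is given. In 3 libraries the CM was from cells without 4-OHT (control ATII CM), and in 3 it was from cells that had received 4-OHT (4-OHT ATII CM). All 6 libraries therefore came from fibroblasts that received CM, none of these groups was left without it, and each side of the exchange is represented by 1 cell line. The drug was not given to fibroblasts alone in these groups, so RAS activity in the ATII cells and drug carried over in the CM cannot be told apart. The labels do not say whether replicates were separate cultures, so p values measure the spread between these samples, which may be technical.

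SMADs carry signals of the transforming growth factor-β (TGF-β) family from receptors at the membrane to the nucleus. SMAD2 and SMAD3 are phosphorylated by TGF-β and activin receptors, SMAD1 and its relatives SMAD5 and SMAD9 by bone morphogenetic protein (BMP) receptors, and both kinds join SMAD4 before they bind DNA. SMAD6 and SMAD7 are inhibitory members of the same family and their genes are themselves switched on by the pathway, SKI and SKIL hold SMAD complexes in a repressed state at target genes, and the ligases SMURF1 and SMURF2 mark SMADs and receptors for degradation. In lung fibroblasts the SMAD3 arm is best known for driving matrix genes and myofibroblast differentiation. Transcript counts report neither phosphorylation nor protein amount.

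The libraries held 17691849 to 26389449 counts, with a median of 22273931. The control library with the fewest counts, replicate 2, stood apart from the others on the second principal component (23.3% of the variance), whereas the first (43.4%) separated the groups, and where a result on the 10 genes rests on that library it is given with and without it. Fibroblast marker genes summed to 18040 to 19694 TPM (transcript counts divided by gene length and scaled to a common total), and *COL3A1*, *DCN*, *LUM* and *PDGFRA* among the 10 were higher and *VIM* lower in 4-OHT ATII CM. Of 15 epithelial markers 5 were at 0 counts in all libraries, *CDH1* had 4 counts in all, and the summed level was 93.0 to 106.7 TPM with *KRT18* (60.4 to 69.3 TPM) as its largest part. Of the 7 epithelial markers that could be tested 0 passed by edgeR and 0 had an unadjusted p value under 0.05. Of 10 endothelial and leukocyte markers 3 could be tested, 0 passed and 1 had such an unadjusted p value, and the list summed to 1.49 to 4.35 TPM. Of 10 proliferation markers 9 passed the edgeR test as lower in 4-OHT ATII CM and the other was lower at an unadjusted p value under 0.05, with a median log2 fold change of -0.50, and the summed level was 426 to 457 TPM in control libraries and 328 to 373 TPM in the others. *MKI67* and *TOP2A* had log2 fold changes of -0.78 and -0.56. The part of this shift in the results below was not tested.

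Among the 10 genes, *SMAD7* rose and *SMAD3* fell in fibroblasts exposed to 4-OHT ATII CM, and the other 8 did not pass the test. The rise of *SMAD7* was 32.0% (95% interval 21.8 to 43.0%) and the fall of *SMAD3* was a change of -10.2% (-14.2 to -6.13%). Differences were tested with edgeR's quasi-likelihood test on all 19072 genes, and a gene was called a differentially expressed gene (DEG) at an adjusted p value (Benjamini-Hochberg) under 0.05. The DEGs were 2 of 10, beside 5.72% of all genes tested (2.95% higher and 2.76% lower). By DESeq2 and by limma-voom 2 of 10 passed as well, beside 7.69% and 5.94% of the genes each adjusted. An unadjusted edgeR p value under 0.05 was reached by *SMAD3*, *SMAD6*, *SMAD7* and *SMURF2*, 4 of 10, beside 17.3%. The 10 log2 fold changes had a median of 0.03 and a median size of 0.086, beside -0.0020 and 0.121 for all genes. Values did not overlap between groups for *SMAD3*, *SMAD6* and *SMAD7*, 3 of 10, where 22.1% of all genes did not overlap (11.7% higher and 10.4% lower). In bulk RNA, fewer cells of a kind and less RNA per cell cannot be told apart.

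**Figure D1:**
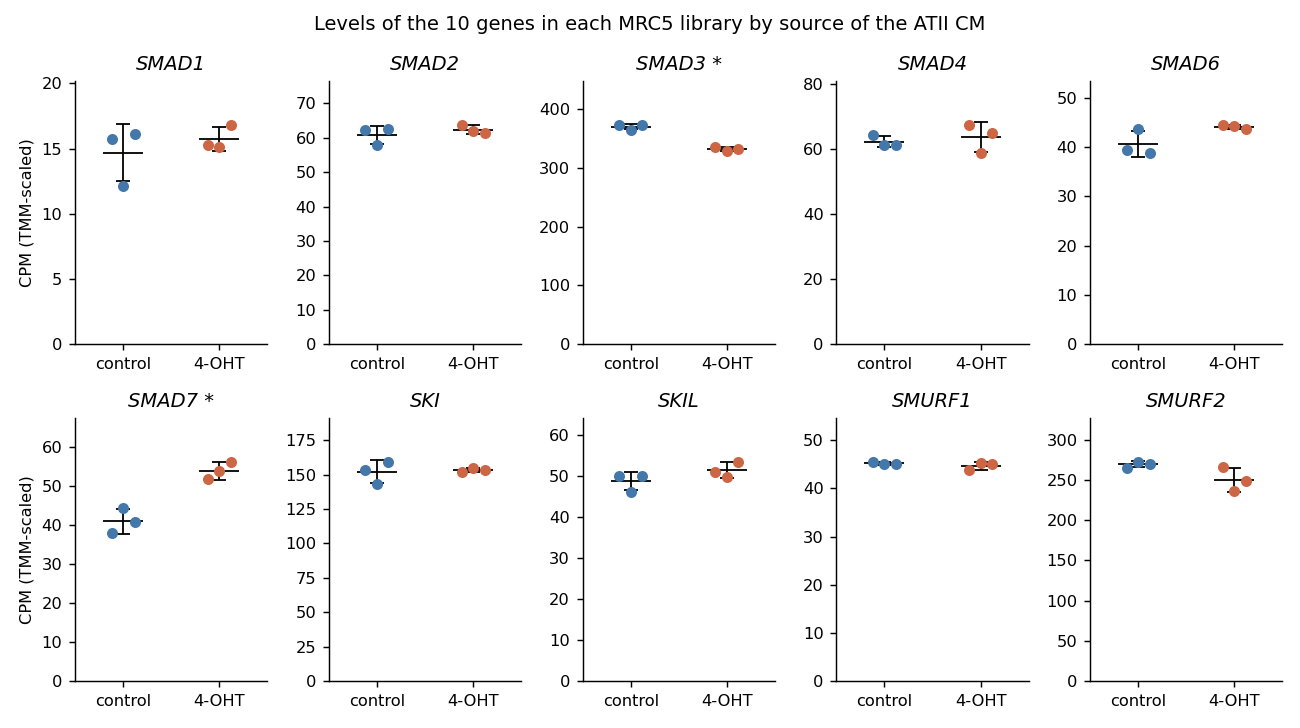
Level of each of the 10 genes in each library, in CPM (counts scaled by library size), with points for the 3 control ATII CM and the 3 4-OHT ATII CM libraries and a bar with whiskers for the group mean and SD. The asterisk marks the DEGs. The 3 libraries in 4-OHT ATII CM lie above all control libraries for *SMAD7* and *SMAD6* and below them for *SMAD3*.

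*SMAD3* (ENSG00000166949), the receptor-activated SMAD of the TGF-β branch that binds DNA directly, lies on chr15:67063763-67195195 (plus strand, GRCh38). Its level was 372, 365 and 373 CPM (counts scaled by library size and the edgeR factors) in the 3 control libraries and 335, 329 and 332 CPM in the 3 libraries with 4-OHT ATII CM. Every library in 4-OHT ATII CM was below every control library, by more than the range inside either group. The means were 369.9 ± 4.59 and 332 ± 3.38 CPM (SD, n = 3 each), which gave a log2 fold change of -0.16 (SE 0.0304, edgeR adjusted p value 0.00546). By p value *SMAD3* came 189th among the 527 DEGs that fell, and 42.2% of all genes tested had a fold change larger in size. With 47169 counts in all it was the most deeply counted of the 10 genes, and it stayed a DEG that fell under each of the 16 alternative analyses, with log2 fold changes of -0.17 to -0.14.

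*SMAD2* (ENSG00000175387, chr18:47808957-47931146, minus strand), the other SMAD of the TGF-β branch, gave 62.2, 57.9 and 62.5 CPM in control libraries and 63.8, 61.9 and 61.3 CPM in 4-OHT ATII CM. The groups overlapped, with a log2 fold change of 0.03 (SE 0.0415) and a 95% interval for the change of -3.88 to 8.66%. With an offset for gene length and GC content the log2 fold change was 0.14 (edgeR adjusted p value 0.0715), above that interval, and with the replicate block as well it was 0.14 (0.0907). The counts of *SMAD3* per count of *SMAD2* went from 6.08 to 5.33 without overlap between the groups. *SMAD1* (ENSG00000170365, chr4:145481194-145558079, plus strand), which serves BMP receptors, had the fewest counts of the 10, 2072 in all. Its levels were 15.7, 12.2 and 16.1 CPM in control libraries and 15.3, 15.2 and 16.8 CPM in 4-OHT ATII CM. The 12.2 CPM was from control replicate 2, and the log2 fold change of 0.10 (SE 0.0953) became -0.015 without that library. The interval for *SMAD1*, -7.20 to 22.9%, is the widest of the 10.

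*SMAD4* (ENSG00000141646, chr18:51028394-51085045, plus strand), the partner that both branches share, was at 64.3, 61.3 and 61.3 CPM in control libraries and at 67.5, 58.7 and 64.9 CPM in 4-OHT ATII CM. The highest and the lowest of the 6 values were both in 4-OHT ATII CM. The log2 fold change was 0.03 (SE 0.0493, interval -5.08 to 9.79%, edgeR adjusted p value 0.830). Counts of *SMAD3* per count of *SMAD4* fell from 5.94 to 5.23, again with no overlap.

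Of the inhibitory SMADs, *SMAD7* rose and *SMAD6* did not pass the test over all genes. *SMAD7* (ENSG00000101665, chr18:48919853-48952052, minus strand) binds activated TGF-β family receptors and brings SMURF ligases to them. It was at 38.0, 44.4 and 40.7 CPM in control libraries and at 51.7, 53.8 and 56.3 CPM in 4-OHT ATII CM, from 793 to 922 counts per control library and 1133 to 1480 counts per library in the other group. The lowest library in 4-OHT ATII CM was above the highest control library, which was replicate 2. The means were 41.0 ± 3.24 and 53.96 ± 2.28 CPM (SD, n = 3 each), and the log2 fold change was 0.40 (SE 0.0544, edgeR adjusted p value 0.000336). It ranked 72nd by p value among the 563 DEGs that rose, 19.0% of all genes tested had a fold change larger in size, and it stayed a DEG that rose under each of the 16 alternatives, with log2 fold changes of 0.35 to 0.46.

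*SMAD6* (ENSG00000137834, chr15:66702228-66782848, plus strand) acts mainly against the BMP branch. It was at 39.4, 43.7 and 38.8 CPM in control libraries and at 44.5, 44.3 and 43.8 CPM in 4-OHT ATII CM. The groups did not overlap, but control replicate 2, at 43.7 CPM, was only just below the lowest of the other group at 43.8 CPM. The log2 fold change was 0.12 (SE 0.0499, interval for the change 1.25 to 17.3%), with an unadjusted p value of 0.0249 and an edgeR adjusted p value of 0.194 over all genes. Without control replicate 2 it became a DEG, with a log2 fold change of 0.18 and an adjusted p value of 0.0213, and under the other 15 alternatives it did not pass. *SMAD6* had 0.992 counts per count of *SMAD7* in control libraries and 0.820 in 4-OHT ATII CM, a log2 difference of -0.28 with no overlap between the groups.

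The genes of the inhibitory SMADs are known targets of SMAD complexes, which bind the letters GTCTAGAC. *SMAD6* holds this sequence beside its gene start, and the 250 bases up to the RefSeq start are shown for that reason, with those of *SMAD3*, the member that fell. The letters in the windows of the other 8 members are not reported here, so these windows do not show which members hold or lack them. They run 5′ to 3′ on the strand of the gene, with GTCTAGAC in capitals. The *SMAD6* window is chr15:66701986-66702235 and that of *SMAD3* is chr15:67065352-67065601, both on the plus strand of GRCh38. *SMAD3* has several RefSeq starts, of which the most upstream was used, and its deposited start lies further upstream.
SMAD6: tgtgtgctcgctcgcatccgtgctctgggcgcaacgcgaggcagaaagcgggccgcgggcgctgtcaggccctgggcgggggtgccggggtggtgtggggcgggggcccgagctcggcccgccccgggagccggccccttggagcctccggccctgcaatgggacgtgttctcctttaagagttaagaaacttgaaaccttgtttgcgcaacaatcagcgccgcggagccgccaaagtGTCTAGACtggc
SMAD3: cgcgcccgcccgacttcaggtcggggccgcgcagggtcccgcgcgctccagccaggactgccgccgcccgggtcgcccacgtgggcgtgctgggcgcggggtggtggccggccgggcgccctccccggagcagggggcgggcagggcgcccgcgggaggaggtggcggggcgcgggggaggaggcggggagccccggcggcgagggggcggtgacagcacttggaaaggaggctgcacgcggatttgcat
In *SMAD6* the first base of GTCTAGAC is at -12 from the RefSeq start and -4 from the deposited one (chr15:66702224-66702231). The *SMAD3* window has no GTCTAGAC. A window of 300 bases, 250 before to 50 after the deposited gene start, could be read for 19036 of the genes tested, and GTCTAGAC, which reads the same on both strands, was in 24 of them (0.126%). At the 35116 RefSeq start sites it was in 0.202%. AGCCAGACA (either strand), another SMAD-binding sequence, was in 0.315% of the windows at deposited starts. GGCGCC (either strand), a sequence bound by BMP-type SMADs, was in 22.2% of windows. A match in letters is a description of the window and not a measured binding site.

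The corepressor *SKI* (ENSG00000157933, chr1:2228695-2310119, plus strand) was at 153.7, 143 and 159 CPM in control libraries and at 152, 155 and 154 CPM in 4-OHT ATII CM. Its groups overlapped, and the interval for the change was -5.05 to 6.98%. *SKIL* (ENSG00000136603, chr3:170357678-170396835, plus strand), a relative of *SKI* whose transcription TGF-β is known to raise, was at 50.1, 46.1 and 50.1 CPM and at 51.1, 49.8 and 53.5 CPM. Its lowest value in 4-OHT ATII CM, 49.8 CPM, was below 2 of the 3 control values. The log2 fold change was 0.08 (SE 0.0464, edgeR adjusted p value 0.448), and counts of *SKIL* per count of *SKI* were 0.321 and 0.335, with overlap.

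The ubiquitin ligases differed in abundance but neither passed the test. *SMURF1* (ENSG00000198742, chr7:99027438-99144100, minus strand) was the steadiest of the 10, at 45.6, 45.2 and 45.01 CPM in control libraries and 43.8, 45.2 and 45.1 CPM in 4-OHT ATII CM, with an interval for the change of -7.09 to 5.04%. Its exons share 11.7% of their bases with *TRRAP* on the other strand, and the strand setting of the counting is not given in the sources used here, so its reads and those of *TRRAP* cannot be fully told apart. Opposite-strand overlaps were 2.40% for *SMURF2* (with *CEP95*) and 2.00% for *SMAD3* (with a gene of 4 to 10 counts per library). That of *SMAD1* was 6.21%, with *SMAD1-AS1*, which had 0 counts in every library. *SMAD4* shared 7.37% with a gene on its own strand that had 0 to 2 counts per library. *SMURF2* (ENSG00000108854, chr17:64542295-64662068, minus strand) was at 266, 273 and 270.1 CPM in control libraries and at 266, 236 and 249 CPM in 4-OHT ATII CM. Replicate 1 of 4-OHT ATII CM lay level with the lowest control, while the other two lay below all controls. Its log2 fold change was -0.11 (SE 0.0404, interval for the change -12.4 to -1.35%), with an unadjusted p value of 0.0194 and an edgeR adjusted p value of 0.168, and it passed under none of the 16 alternatives. Counts of *SMURF2* per count of *SMURF1* were 5.96 and 5.61, with overlap between the groups.

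**Figure D2:**
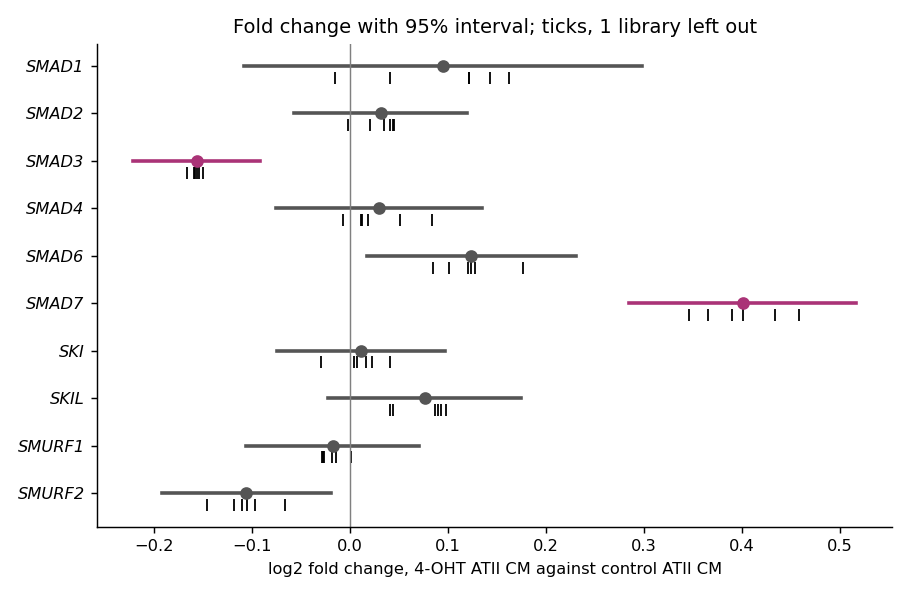
Log2 fold change in 4-OHT ATII CM against control ATII CM for the 10 genes, with the 95% interval of the edgeR estimate, DEGs in violet, and ticks for the fold change with 1 library left out. *SMAD7* stands highest at 0.40 and *SMAD3* lowest at -0.16, and the intervals of *SMAD1*, *SMAD2*, *SMAD4*, *SKI*, *SKIL* and *SMURF1* include 0.

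Compared per length of gene, *SMAD3* and *SMURF2* were the most abundant of the 10 transcripts in control ATII CM, at 166 ± 3.10 and 158 ± 0.933 TPM, above 94.6% and 94.5% of all genes tested. *SKI* followed at 102 ± 5.83 TPM. Then came *SMAD7* at 33.2 ± 2.38, *SMURF1* at 29.4 ± 0.425 and *SKIL* at 25.6 ± 1.34 TPM, each separate from its neighbours in the order. *SMAD4* and *SMAD6*, both at 19.4 TPM, overlapped, and *SMAD1* (9.89 ± 1.52 TPM) and *SMAD2* (6.83 ± 0.327 TPM) were lowest. In 4-OHT ATII CM *SMAD3* (148 ± 3.41 TPM) and *SMURF2* (146 ± 10.6 TPM) overlapped, *SMAD7* reached 43.5 ± 1.61 TPM, and *SMAD6* (21.0 ± 0.391 TPM) and *SMAD4* (19.7 ± 1.64 TPM) still overlapped. The deposited length of *SMAD2* is 36366 bases, beside 5033 to 13123 bases for the other 9, and a long length lowers a TPM value. The length of the longest GENCODE transcript was used instead as an alternative chosen after seeing the data. With it *SMAD6* moved from place 8 to place 6 and *SKIL* from 6 to 8, and *SMAD2* was still lowest. That transcript of *SMAD2* is 34626 bases, close to the deposited length, so this choice cannot show how far length sets its place.

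**Figure D3:**
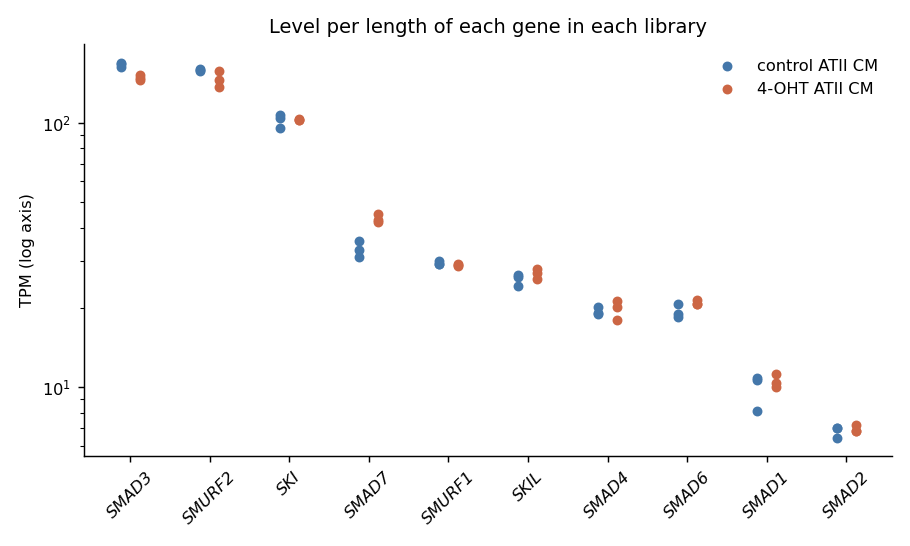
Level per length of the 10 genes, in TPM on a log axis, with points for the 6 libraries in the 2 kinds of CM. *SMAD3*, *SMURF2* and *SKI* lie at 95.6 TPM or above in the control libraries, and *SMAD1* and *SMAD2* lie lowest in both groups.

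Summed by role, the receptor-activated SMADs among the 10 went from 182 ± 4.88 TPM in control ATII CM to 165 ± 3.78 TPM in 4-OHT ATII CM, most of it *SMAD3*. The inhibitory SMADs went the other way, from 52.6 ± 3.43 to 64.5 ± 1.38 TPM. *SMAD5* and *SMAD9*, receptor-activated SMADs outside the 10, summed to 61.2 to 66.9 TPM in control libraries and 70.3 to 75.9 TPM in the others. The SKI proteins were at 128 ± 7.10 and 129 ± 1.39 TPM and the SMURF ligases at 187 ± 0.667 and 175 ± 10.5 TPM. The sum of all 10 was 569.6 ± 8.15 and 554 ± 17.1 TPM, a difference smaller than the SD within 4-OHT ATII CM.

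Transcript counts of *SMAD7* and *SMAD3* can be compared inside each library, where library scaling drops out. The log2 ratio of *SMAD7* counts to *SMAD3* counts was -3.29, -3.04 and -3.20 in control libraries and -2.70, -2.61 and -2.56 in 4-OHT ATII CM. The groups could not overlap, since every library in 4-OHT ATII CM was above every control for *SMAD7* and below every control for *SMAD3*. The mean ratio went from 0.111 to 0.163 counts of *SMAD7* per count of *SMAD3*, a log2 difference of 0.55. Leaving out each library in turn gave 0.49 to 0.62. Against *SMAD2* and *SMAD4*, which did not pass the test, *SMAD7* also gained, by 0.36 and 0.37 on the log2 scale, and both pairs of groups were without overlap. These ratios combine genes already described and are given without a test.

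**Figure D4:**
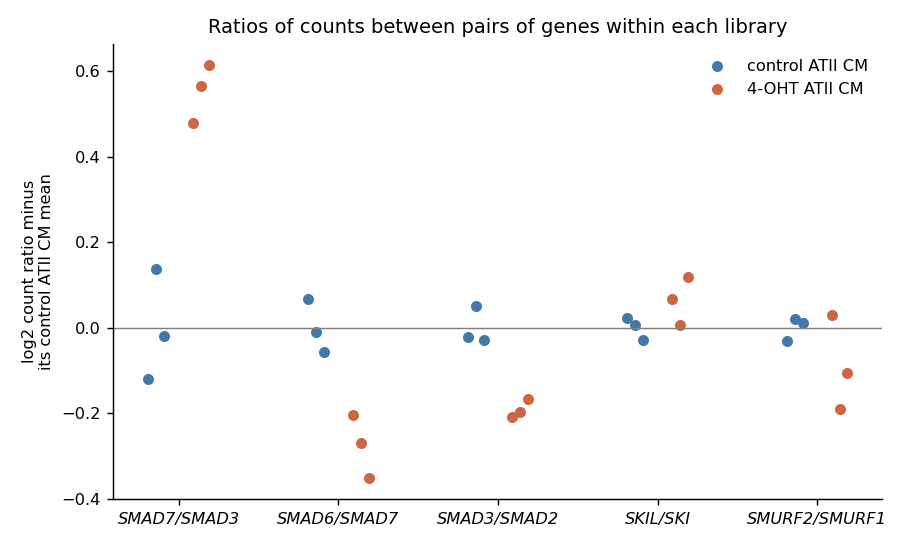
Log2 ratio of counts between pairs of the genes in each library, less the mean of the control ATII CM libraries, with points for the libraries of both groups. The ratio of *SMAD7* to *SMAD3* centres 0.55 above its control mean, those of *SMAD6* to *SMAD7* and of *SMAD3* to *SMAD2* lie below it, and the ratios of *SKIL* to *SKI* and of *SMURF2* to *SMURF1* overlap.

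Likeness was measured by the root mean square difference between centred log2 CPM values over the 6 libraries. It was taken among 10158 protein-coding genes with a mean of at least 5 CPM. The genes most like *SMAD7* were *APOE* (0.022), *TMOD1* (0.053) and *SOX4* (0.056). Genes picked this way share the direction of the gene they resemble, so that all 3 rose in 4-OHT ATII CM adds no support. *SOX4*, a transcription factor gene, went from 234 to 247 CPM in control libraries to 292 to 311 CPM. The nearest member was *SMAD6*, at place 683 with 0.148. For *SMAD3* the most alike were *USP14* (0.013), *TMEM209* (0.015) and *HSBP1L1* (0.015), of which *USP14* was a DEG with a log2 fold change of -0.14 and a call lost under 8 of the 16 alternatives, and *TMEM209* and *HSBP1L1*, at -0.17 and -0.15, did not pass (edgeR adjusted p values 0.190 and 0.0792). The nearest member was *SMURF2*, at place 591 with 0.052.

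The remaining receptor-activated SMADs, *SMAD5* and *SMAD9*, belong to the BMP branch. *SMAD9* rose from 35.1, 34.9 and 37.2 CPM in control libraries to 49.6, 48.8 and 47.3 CPM in 4-OHT ATII CM, and no values overlapped. Its log2 fold change of 0.44 (SE 0.0459, edgeR adjusted p value 3.7e-05) was of the size seen for *SMAD7*. *SMAD5* had a log2 fold change of 0.01 and an edgeR adjusted p value of 0.932. Among the SMADs of the BMP branch 1 of 3, with *SMAD1*, thus passed as higher, beside 2.95% of all genes tested. Counts of *SMAD9* per count of *SMAD3* went from 0.0967 to 0.146.

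Of 21 genes for ligands and receptors of the family, 5 rose (23.8%, beside 2.95% of all genes tested) and 0 fell by edgeR (2.76% of all genes), with a median log2 fold change of 0.071, and 1 was lower at an unadjusted p value under 0.05. Those that rose were the ligand genes *BMP4* and *BMP2* and the receptor genes *ACVRL1*, *BMPR1A* and *ACVR1B*. *BMP4* was at 285, 282 and 269 CPM in control libraries and at 338, 361 and 354 CPM in 4-OHT ATII CM, which gave a log2 fold change of 0.34 (edgeR adjusted p value 4.6e-05), and *BMP2* had a log2 fold change of 0.35. The receptors had log2 fold changes of 0.16 to 0.19 and adjusted p values of 0.0120 to 0.0416, and their calls were lost under 3 (*ACVRL1*), 6 (*BMPR1A*) and 9 (*ACVR1B*) of the 16 alternatives. *TGFB1* and the TGF-β receptor genes *TGFBR1* and *TGFBR2* had log2 fold changes of 0.02, 0.02 and 0.06 and did not pass.

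Of 24 other regulators of SMADs and their receptors, 1 rose and 1 fell (8.33% in all, beside 5.72% of all genes tested), with a median log2 fold change of 0.033. *BAMBI*, a decoy receptor that blocks signalling by the family, rose from 40.9, 40.8 and 36.01 CPM to 47.8, 48.4 and 47.7 CPM, a log2 fold change of 0.29 (edgeR adjusted p value 0.00268). *USP9X*, a deubiquitinase of SMAD4, passed with -0.23, but its groups overlapped through control replicate 2 and the call was lost under 7 alternatives. Without that library its log2 fold change was -0.33 (edgeR adjusted p value 6.65e-06). *PMEPA1*, another feedback inhibitor that TGF-β induces, had a log2 fold change of 0.19 and did not pass (adjusted p value 0.209). Of 20 tested nuclear partners of SMADs, 1 passed, beside 5.72% of all genes tested, namely *MYC*, with a log2 fold change of -0.18 and a call lost under 9 alternatives. By DESeq2 1 nuclear partner passed as higher and *MYC* did not pass.

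Known target genes of the TGF-β branch did not share a direction. Of 32 such genes 4 rose and 5 fell (28.1% in all, beside 5.72% of all genes tested), with a median log2 fold change of 0.03. *LTBP2*, a matrix protein gene, fell from 385, 355 and 371 CPM to 328, 322 and 318 CPM, without overlap, and its log2 fold change was -0.20 (edgeR adjusted p value 0.00260). *LOX* (-0.17), which crosslinks collagen, and *FN1* (-0.32) and *ADAM12* (-0.32) fell too, whereas *IGFBP5* (0.29), *TGFBI* (0.17), *THBS1* (0.14) and *ELN* (0.21) rose. The calls for *LTBP2*, *LOX*, *IGFBP5* and *TGFBI* held under all 16 alternatives. Those for *ELN*, *ADAM12*, *FN1* and *THBS1* were lost under 11, 9, 3 and 2 of them, and *THBS1* and *LOX* share 4.89% and 2.49% of their exon bases with a gene on the other strand. Without control replicate 2 the number of DEGs in the list was 18 in place of 9, while over all genes it was 1530 in place of 1090.

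Target genes of the BMP branch that passed in the edgeR fit had risen. Of 14 tested, 4 rose (28.6%, beside 2.95% of all genes tested) and 0 fell by edgeR, the median log2 fold change was 0.20, and 2 were lower at an unadjusted p value under 0.05. Without a filter on low counts, and with the replicate block and a length and GC offset together, 5 rose and 1 fell. *ID2*, *ID3* and *ID1*, direct BMP target genes that encode inhibitors of differentiation, had log2 fold changes of 0.36, 0.31 and 0.23. *ID2* went from 54.7, 61.0 and 56.2 CPM in control libraries to 75.2, 73.4 and 71.6 CPM, without overlap. The call for *ID1* was lost under 3 alternatives. The other 10, *NOG* among them at -0.40 with an adjusted p value of 0.131, did not pass.

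**Figure D5:**
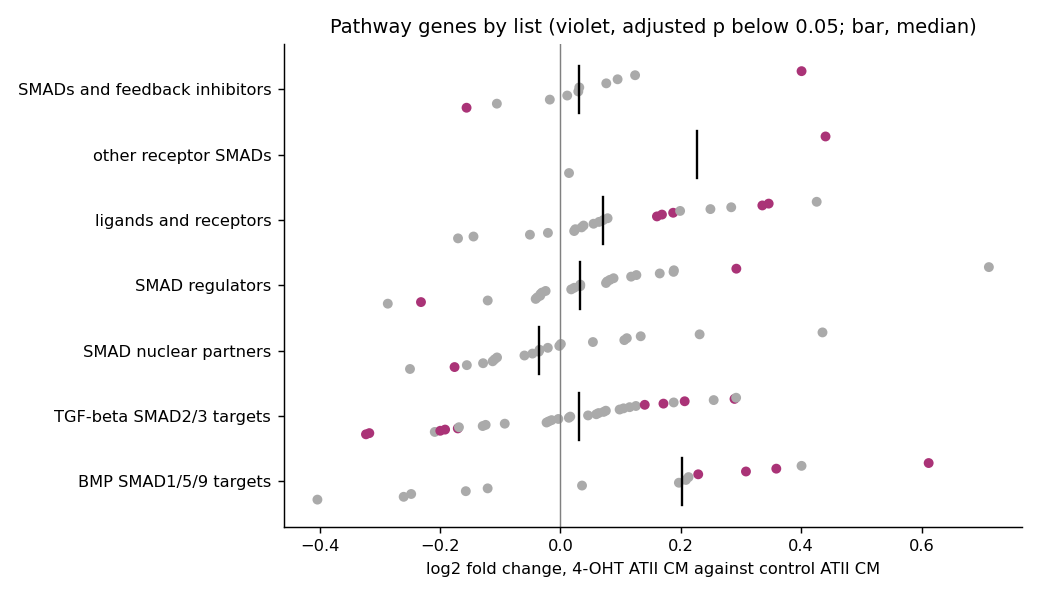
Log2 fold change of each tested gene in the pathway lists, one band of points for each list, with DEGs in violet and the median of each list as a black bar. The lists of BMP targets and of ligands and receptors have medians of 0.20 and 0.071, and the list of TGF-β branch targets has DEGs on both sides of 0.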

How the data were processed

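RNA-Seq of polyadenylated RNA from MRC5 cells in control ATII CM (n = 3) and 4-OHT ATII CM (n = 3) was analysed, with groups taken from the sample labels. Per the submitters' processing notes and the study's methods, the authors used Trim Galore for trimming, Hisat2 2.1.0 for alignment (GRCh38) and featureCounts 1.6.5 for counting, and deposited raw counts per gene with the length of each gene's merged exons. Annotation release, strand setting and treatment of multimapping reads are not given in the sources used here. All 6 count columns were used, and the 45 identifiers listed more than once were summed.

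Genes with at least 10 summed counts (19072) were fitted with edgeR 4.0.16 in R 4.3.3 (trimmed mean scaling, quasi-likelihood test, group as the only term), with Benjamini-Hochberg adjustment over all of them. The square root of the common dispersion was 4.36%. Log2 CPM used a prior count of 2. Tests of single genes by permutation of 3 against 3 libraries cannot go below p = 0.1 and were not used. TPM was computed from the deposited lengths, and no interval beyond those of the fit was computed. The fit was tested on simulated data before use. The 16 alternative analyses were DESeq2 1.42.0, limma-voom (limma 3.58.1), other scalings and filters, thinned counts, a length and GC offset, a replicate block, and each library left out. Symbols came from GENCODE release 44. No member had a near-identical copy by the thresholds used with minimap2. Promoter windows were read from the GRCh38 genome and RefSeq start sites.

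The members and the pathway lists were chosen with earlier results of these data known. Some items are not reported here. All 10 members are named; of other lists, the DEGs (at most 10 a list, by p value) are named, and genes added to illustrate those that did not pass were picked after their values were seen. For *SMAD7* and *SMAD3* the 3 most alike genes are named.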

Additional observations from a re-analysis of the deposited data

How the results depend on the processing

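Calls for *SMAD7* and *SMAD3* held under the 16 alternatives, with adjusted p values of at most 0.00428 and 0.0408, and 2 to 3 of the 10 genes were DEGs when each library was left out in turn. Log2 fold changes of 5 genes that were not DEGs turned sign with a library left out, with ranges of -0.015 to 0.16 (*SMAD1*), -0.0017 to 0.045 (*SMAD2*) and -0.029 to 0.041 (*SKI*), each lowest without control replicate 2, of -0.0069 (without 4-OHT ATII CM replicate 1) to 0.084 (*SMAD4*) and of -0.028 to 0.0016 (without 4-OHT ATII CM replicate 1, *SMURF1*). Over all genes, leaving out a library gave 533 (without 4-OHT ATII CM replicate 2) to 1530 DEGs (without control replicate 2), beside 1090. DESeq2 made 954 DEGs among the 12411 genes it adjusted, and limma-voom 1132. DEGs among ligands and receptors were 3 by DESeq2 and 2 to 4 with a library left out, beside 5. Among the other regulators they were 1 by DESeq2 and 1 to 3 with a library left out, beside 2. Among nuclear partners, with 1 in the edgeR fit, limma-voom gave 3, no filter 5, filterByExpr 2, thinned counts 0, and a length and GC offset 4, and leaving out a library gave 0 to 5. Targets of the TGF-β branch numbered 16 without a filter and 6 to 18 with a library left out, beside 9, and those of the BMP branch 3 to 5 with a library left out, and 6 (5 higher and 1 lower) without a filter and with block and offset together, beside 4. Replicate numbers are shared between groups but do not pair the libraries: correlations of deviations over 9691 genes were -0.014, -0.10 and -0.093 for equal numbers. With the replicate block, 1 regulator and 0 nuclear partners were DEGs, and 3 nuclear partners with block and offset together, while no call among the 10 genes changed. In all cases the cause was not tested. *SMAD1* had the fewest counts of the 10 genes, 2072, and the widest interval.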
